A study of Mus musculus with 72 samples.

Results

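The Mest region is represented by 9 CpGs of chromosome 6, chosen by their feature name, out of 224 CpGs in the whole table. Methylation was read separately on the maternal and the paternal allele by IMPLICON, in which bisulfite-converted DNA is amplified over imprinted regions and strain variants within a read tell which parental genome it came from. The 48 libraries came from 5 brain areas (nucleus accumbens, hypothalamus, hippocampus, prefrontal cortex and cerebellum) and from lung of 8 female F1 mice, 1 library per mouse and tissue. The 4 old mice were mice 1 and 2 (BL6 mother and CAST father, 101 weeks) and mice 3 and 4 (CAST mother and BL6 father, 103 weeks). The 4 young mice were mice 5 and 6 (CAST mother, 8 weeks) and mice 7 and 8 (BL6 mother, 9 weeks). All mice were hybrids of the same 2 strains with no transgene or treatment given in the labels, and the crosses of an age also differ by 1 or 2 weeks. The tissues are dissected pieces of mixed cell types, and the table holds no marker by which their identity could be checked.

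Mest, also called Peg1, encodes a protein of the alpha/beta-hydrolase fold and is expressed mainly from the copy inherited from the father. Its promoter region gains methylation in the oocyte, so that the maternal copy is methylated and silent in the embryo and the paternal copy is unmethylated. Such a region is called a germline differentially methylated region, and in somatic cells each allele is thought to copy its own state at every division. The gene is active in mesoderm and in parts of the brain, and its paternal deletion in mice has been linked to growth and maternal behaviour.

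The 9 CpGs lie within chr6:30737609-30737809 of GRCm38. RefSeq places Mest on the plus strand at chr6:30733506-30748466 (GRCm38.p6), with annotated starts at 30733506, 30738050 and 30738053. All 9 CpGs therefore lie inside the gene as annotated from its first start, 4103 bases or more past it, and 241 to 441 bases before the start at 30738050. Whether they fall in an exon or an intron is not given by the tables used here. The 250 bases before that start are shown because they hold the last 2 measured CpGs and lead up to the promoter. They are the plus strand of chr6:30737800-30738049 from RefSeq (GRCm38.p6), in lower case, with the 2 measured CpGs, at 30737807 and 30737809, in capitals.
Mest, 250 bases before the start at 30738050: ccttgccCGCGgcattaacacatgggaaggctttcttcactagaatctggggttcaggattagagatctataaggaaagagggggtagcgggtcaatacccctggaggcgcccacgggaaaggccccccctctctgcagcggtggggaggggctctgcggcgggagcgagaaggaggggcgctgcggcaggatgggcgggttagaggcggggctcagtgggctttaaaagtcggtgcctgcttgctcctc
This window held 14 CpGs, against a median of 6 in the 32851 RefSeq promoter windows of the same length, of which 29.4% held as many or more. The letters TGCCGC, the core of the element bound by ZFP57 (a zinc finger protein that maintains methylation at imprinted regions), were searched on both strands. They occurred 2 times, both as GCGGCA on the plus strand, at 30737808 to 30737813, which contains the last measured CpG, and at 30737983 to 30737988. Of all windows, 8.68% held at least 1 match and 0.852% held 2 or more.

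The level of a library and allele is the share of methylated calls among all calls summed over the 9 CpGs, and a sum under 100 calls was not used. The 9 CpGs are read on the same molecules, so 100 calls are about 11 reads. Of the libraries with a Mest call, 23 of 23 old and 21 of 24 young ones had 100 or more on the maternal allele, and 23 of 24 old and 22 of 24 young ones on the paternal allele. Old libraries were far deeper at Mest, with a median of 970 maternal and 1022 paternal calls, against 241 and 243 calls in young libraries. The hippocampus library of old mouse 3 held 376 calls over the whole table and 9 at Mest, and was not used. Young mouse 8 had the lowest depth, its libraries holding a median of 16155 calls over the table. The prefrontal cortex library of young mouse 5 stood apart at several regions, with 2.65% methylation on the maternal allele of Gnas and 62.8% on the paternal allele of Plagl1, so results that rest on it are given with and without it.

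Mest was methylated mainly on the maternal allele. The words maternal and paternal rest on reading genome 1 of the table as BL6, and the opposite reading would exchange them throughout. Over tissues, the maternal level averaged 72.0% ± 13 and the paternal level 19.6% ± 10.1 (SD, n = 8 mice), and the maternal allele was higher in 8 of 8 mice. The mean difference was 52.4 ± 22.9 percentage points (exact two-sided sign-flip permutation test, p = 0.00781, the smallest it can give, adjusted p = 0.0182). Within a tissue, the difference ran from 49.6 points in hypothalamus to 63.0 points in nucleus accumbens and passed the adjusted threshold of 0.05 in 6 of 6 tissues, beside 66.7% of all region and tissue pairs tested. In prefrontal cortex, where 6 mice had both alleles, the exact adjusted p was 0.0463, and it was 0.0844 without the library of mouse 5.

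Of the 43 libraries with both alleles, 41 had the maternal allele higher. The 23 old libraries had differences of 55.5 to 86.8 points, against -15.9 to 75.4 points in the 20 young ones. Both exceptions were from mouse 8. In its cerebellum the maternal level was 35.7% and the paternal level 51.6%, and in its hypothalamus the maternal level was 32.6% and the paternal level 41.7%. These 4 values rest on 12 to 15 reads each, and the 95% Wilson intervals of the alleles overlapped, at 16.3 to 61.2% maternal and 26.8 to 73.2% paternal in cerebellum. Intervals cover counting error only, since PCR copies could not be told from separate molecules. In the hippocampus library of mouse 8 the maternal allele was 43.0 points above the paternal one.

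Whether the imprint holds with age was first asked over all tissues, with 1 level per mouse and allele adjusted for the tissues that a mouse lacked. On the maternal allele the old mice 1 to 4 had 80.8, 84.0, 83.9 and 80.4%, against 64.7, 71.8, 61.2 and 44.6% in the young mice 5 to 8. Every old mouse was above every young one. The old mean was 82.3% ± 1.96 and the young mean 60.6% ± 11.5 (SD, n = 4 each), a difference of 21.7 points with a standard error of 5.02 and a 95% confidence interval of 9.39 to 34.0 points. The exact permutation test gave p = 0.0286, the smallest possible for 4 against 4 mice. In the limma fit over 22 region-alleles (a region on 1 parental allele) the adjusted p was 0.0782, and 0% of them were called. The edgeR test instead took the calls of each mouse summed over its tissues, so it was not adjusted for the tissues that a mouse lacked. It gave 4.55% called, which is 1 region-allele, the maternal allele of Mest (edgeR adjusted p = 0.0350).

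The paternal allele had the opposite order. The old mice 1 to 4 had 12.4, 11.3, 10.5 and 14.1%, against 19, 20.4, 27.5 and 37.0% in the young mice 5 to 8, again with no overlap. The old mean was 12.1% ± 1.58 and the young mean 26.0% ± 8.23 (SD, n = 4 each), a difference of -13.9 points with a standard error of 3.44 (exact permutation p = 0.0286, limma adjusted p = 0.0782). Of all region-alleles, 18.2% did not overlap between the ages over tissues. The gap between the alleles was therefore wider in old mice, at 68.4, 72.8, 73.4 and 66.2 points in mice 1 to 4, than in young ones, at 45.8, 51.4, 33.7 and 7.65 points in mice 5 to 8 (exact permutation p = 0.0286). The mean of both alleles differed less, at 47.2% ± 0.428 in old mice and 43.3% ± 2.39 in young mice (SD, n = 4 each). It too did not overlap between the ages (exact permutation p = 0.0286), but overlapped within 100 to 1000 calls (exact permutation p = 0.314).

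Neither allele passed the adjustment over tissues, but the side of the threshold depended on the fit. With the libraries kept as the unit and the mouse as replicate block, the maternal difference was 20.6 points (adjusted p = 0.00126, limma). The paternal one was -13.7 points (adjusted p = 0.00355, limma), beside 18.2% of region-alleles called in that fit. Age differs only between mice, while that fit takes its degrees of freedom from the libraries. It uses 1 correlation of 0.186 for all region-alleles, so tissues of 1 mouse count largely as replicates. In the fit with 1 level per mouse, leaving out mouse 8 gave 16.6 points maternal and -10.6 points paternal. Each had a limma adjusted p of 0.0270, beside 13.6% called. Without mouse 6 the maternal difference was 24.3 points (limma adjusted p = 0.0448, beside 9.09% called).

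**Figure D1:**
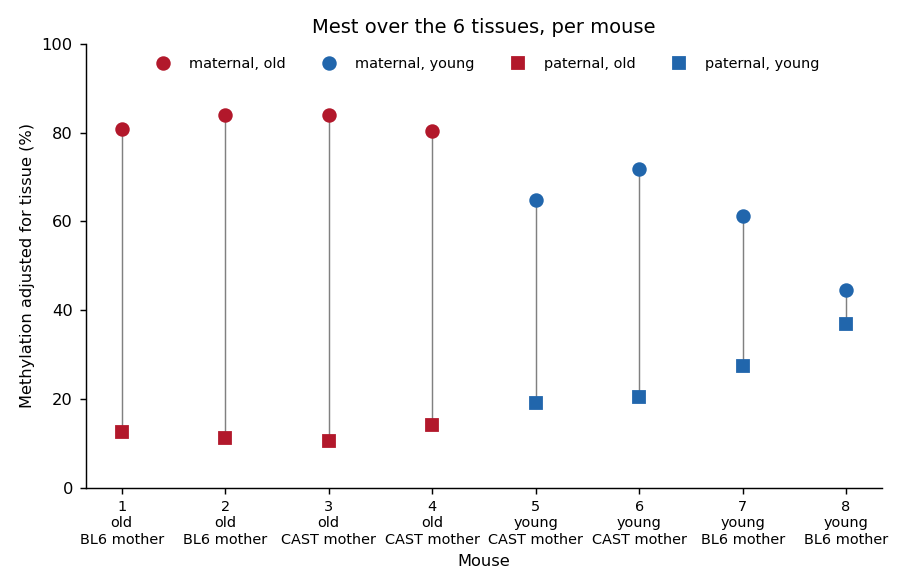
Mest methylation per mouse, adjusted for tissue (%, y axis), for the old mice 1 to 4 on the left and the young mice 5 to 8 on the right, with circles for the maternal and squares for the paternal allele. The line joining the alleles is long and alike in old mice and shortest in mouse 8, where it spans 7.65 points.

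The Mest depth moved with age. The median number of Mest calls per library, both alleles together, was 1723, 3158, 2407 and 1543 in old mice 1 to 4, against 727, 762.5, 421 and 228 in young mice 5 to 8. All old mice were above all young ones (exact permutation p = 0.0286). The calls of the whole library did not separate the ages, with medians of 55565 to 80778 calls in old mice and 16155 to 82931 calls in young mice (exact permutation p = 0.629). Mest accordingly took 2.55 to 3.65% of the calls in old mice and 0.715 to 1.59% in young mice.

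Low Mest levels on the maternal allele and high ones on the paternal allele lay among the shallow libraries. At 100 or more but under 200 calls there were only young libraries, 8 on the maternal allele with a median of 54.4% and 9 on the paternal allele with a median of 31.1%. At 400 to 1000 calls both ages were present. The maternal median was 79.2% in 12 libraries of 4 old mice (70.9 to 88.1%) and 77.5% in 5 libraries of 2 young mice (53.6 to 87.5%). The paternal medians in this range were 14.5% in 9 old (7.66 to 17.5%) and 17.5% in 4 young libraries (12.1 to 29.2%). Both ages were also present at 200 to 399 paternal calls. The medians there were 12.4% in 2 old (11.6 to 13.2%) and 22.1% in 8 young libraries (12.2 to 47.2%). Within 100 to 1000 calls, a range chosen after the data were seen, the differences over tissues were 19.1 points maternal (limma adjusted p = 0.151) and -14.9 points paternal (limma adjusted p = 0.0641). Old libraries were still deeper there, with a maternal median of 729 calls against 241 in young ones. The part of depth in the age difference was not tested further, and over the whole range of calls depth and age cannot be told apart.

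**Figure D2:**
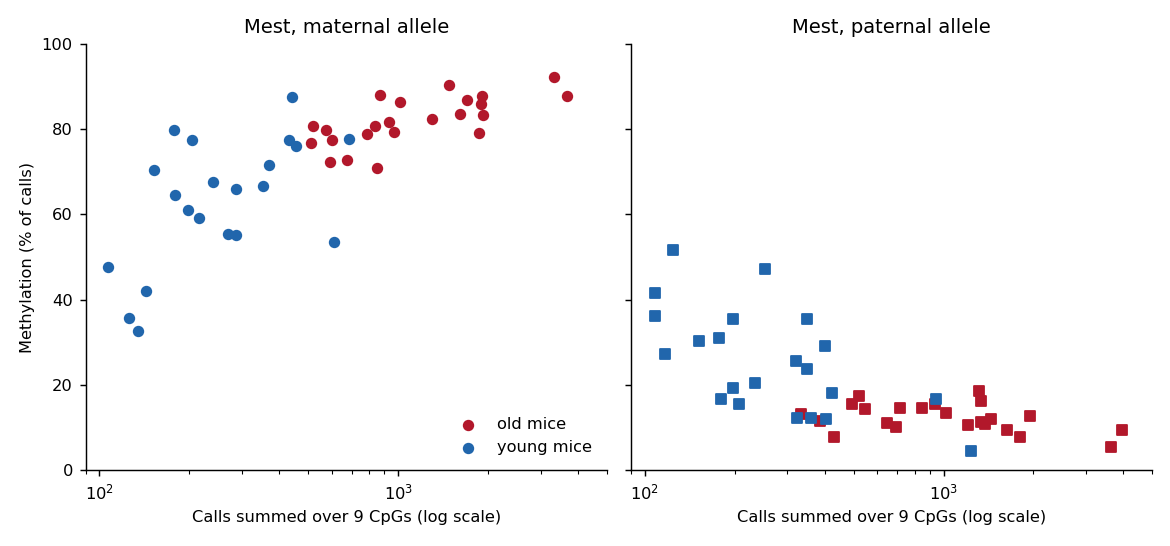
Mest methylation of each library (%, y axis) against the calls summed over the 9 CpGs (x axis, log scale), maternal allele left and paternal allele right, with old mice in red and young mice in blue. The lowest maternal level, 32.6%, and the highest paternal level, 51.6%, are young libraries of 15 and 14 reads, while libraries of over 1000 calls were all from old mice, except 1 on the paternal allele.

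Tissue by tissue, the maternal allele was higher in old than in young mice in 6 of 6 tissues, by 5.56 to 34.1 points in the limma fit, and 1 of these passed the adjustment. The paternal allele was lower in old mice in 5 of 6 tissues and none passed, with differences of -18.9 to 3.35 points. Before adjustment 3 maternal and 4 paternal differences had a limma p under 0.05, beside 11.5% of the 130 tests over all region-alleles and tissues. The ages did not overlap in 4 tissues on the maternal and in 1 on the paternal allele.

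Prefrontal cortex had the passing difference. On the maternal allele the old mice 1 to 4 had 72.8, 88.1, 87.7 and 83.2%, against 47.7, 61.1 and 42.0% in the young mice 5 to 7. All old mice lay above all young ones, and the fitted difference was 34.1 points with a standard error of 5.47 and a confidence interval of 20.0 to 48.2 points (limma adjusted p = 0.0342). It was the only call among the 21 region-alleles tested there, or 4.76%, and 9.52% of them did not overlap between the ages. The young values rest on 12, 22 and 16 reads. Without the library of mouse 5 it came to 31.4 points (limma adjusted p = 0.124), and the call was also lost without mouse 1, 3, 4 or 7 (limma adjusted p from 0.0672 to 0.303). The call was lost as well on the logit scale (limma adjusted p = 0.0655), with calls as weights (limma adjusted p = 0.108) and without the first and last CpG (limma adjusted p = 0.142). The edgeR quasi-likelihood test on the calls gave an adjusted p of 0.102, and 0.0266 with libraries under 100 calls added after the data were seen. The share called with those libraries added was not counted. The paternal allele had 15.6, 10.1, 9.46 and 18.5% in the old mice 1 to 4, against 4.60 and 16.7% in the young mice 5 and 6, so that the ages overlapped.

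Hypothalamus came next. On the maternal allele the old mice 1 to 4 had 86.9, 85.9, 79.4 and 81.7%, against 53.6, 71.5, 55.2 and 32.6% in the young mice 5 to 8. The ages did not overlap, as in 13.6% of the region-alleles there, and the difference of 30.2 points (standard error 7.78) had a limma adjusted p of 0.0895, beside 0% called, and of 0.0470 on the logit scale. The share called on the logit scale was not counted. The paternal levels of the old mice were 9.47, 12.0, 10.6 and 14.5%, against 25.6, 12.3, 23.8 and 41.7% in the young mice. Only young mouse 6 fell within the old range, and the difference was -14.2 points (limma adjusted p = 0.339).

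In cerebellum, the maternal allele had 86.4, 79.8, 92.3 and 79.0% in old mice 1 to 4, against 76.1, 77.5, 64.4 and 35.7% in young mice 5 to 8. The lowest old mouse was just above the highest young one, 13.6% of the region-alleles there did not overlap, and the difference was 20.9 points (standard error 8.30, limma adjusted p = 0.202, 0% called). The paternal allele had 11.1, 14.2, 5.52 and 17.5% in the old mice, against 12.2, 29.2, 31.1 and 51.6% in the young mice. Young mouse 5 lay among the old mice, and the difference was -18.9 points (limma adjusted p = 0.202).

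In nucleus accumbens, the maternal allele had 90.3, 87.8, 82.5 and 80.8% in old mice 1 to 4, against 77.6, 55.4 and 79.8% in young mice 5 to 7. The ages did not overlap, as in 9.09% of the region-alleles there, with a difference of 12.8 points (limma adjusted p = 0.535, 0% called). The paternal allele had 11.4, 7.75, 16.2 and 7.66% in the old mice, against 15.5, 35.4, 19.3 and 36.1% in young mice 5 to 8. Young mouse 5 lay below the highest old mouse, and the difference was -15.8 points (limma adjusted p = 0.360).

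In lung, the organ outside the brain, the maternal allele had 70.9, 83.6, 72.2 and 80.8% in old mice 1 to 4, against 65.9, 77.6 and 59.1% in young mice 5 to 7. The ages overlapped, with a difference of 10.2 points (limma adjusted p = 0.480, 0% called). The paternal allele had 15.4, 10.8, 14.6 and 13.5% in the old mice, against 35.4, 16.7, 47.2 and 30.3% in young mice 5 to 8. Here all old mice were below all young ones, beside 9.09% of region-alleles without overlap, and old minus young came to -18.8 points (limma adjusted p = 0.144; edgeR adjusted p = 0.0986, beside 4.55% called by edgeR).

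Hippocampus had the smallest maternal difference. On the maternal allele the old mice 1, 2 and 4 had 77.6, 79.1 and 76.8%, against 67.6, 87.5, 66.7 and 70.4% in young mice 5 to 8. Young mouse 6 was above all old mice, and the difference was 5.56 points (limma adjusted p = 0.670, 0% called). The paternal levels of the old mice were 11.6, 12.7 and 13.2%, against 20.5, 12.1, 18.2 and 27.4% in the young mice, with young mouse 6 again among the old mice (difference -7.60 points, limma adjusted p = 0.670).

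With the mouse as replicate block over all tissues, the degrees of freedom come from the libraries, so tissues of 1 mouse count largely as replicates. In that fit 4.55% of the tests over all region-alleles and tissues were called, which is 6 calls. Of the 12 Mest differences 4 passed the adjustment, in place of 1. These were the maternal allele in prefrontal cortex (35.6 points, adjusted p = 8.70e-04), hypothalamus (30.2 points, adjusted p = 0.00289) and cerebellum (20.9 points, adjusted p = 0.0374), and the paternal allele in cerebellum (-18.9 points, adjusted p = 0.0313), all in limma.

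**Figure D3:**
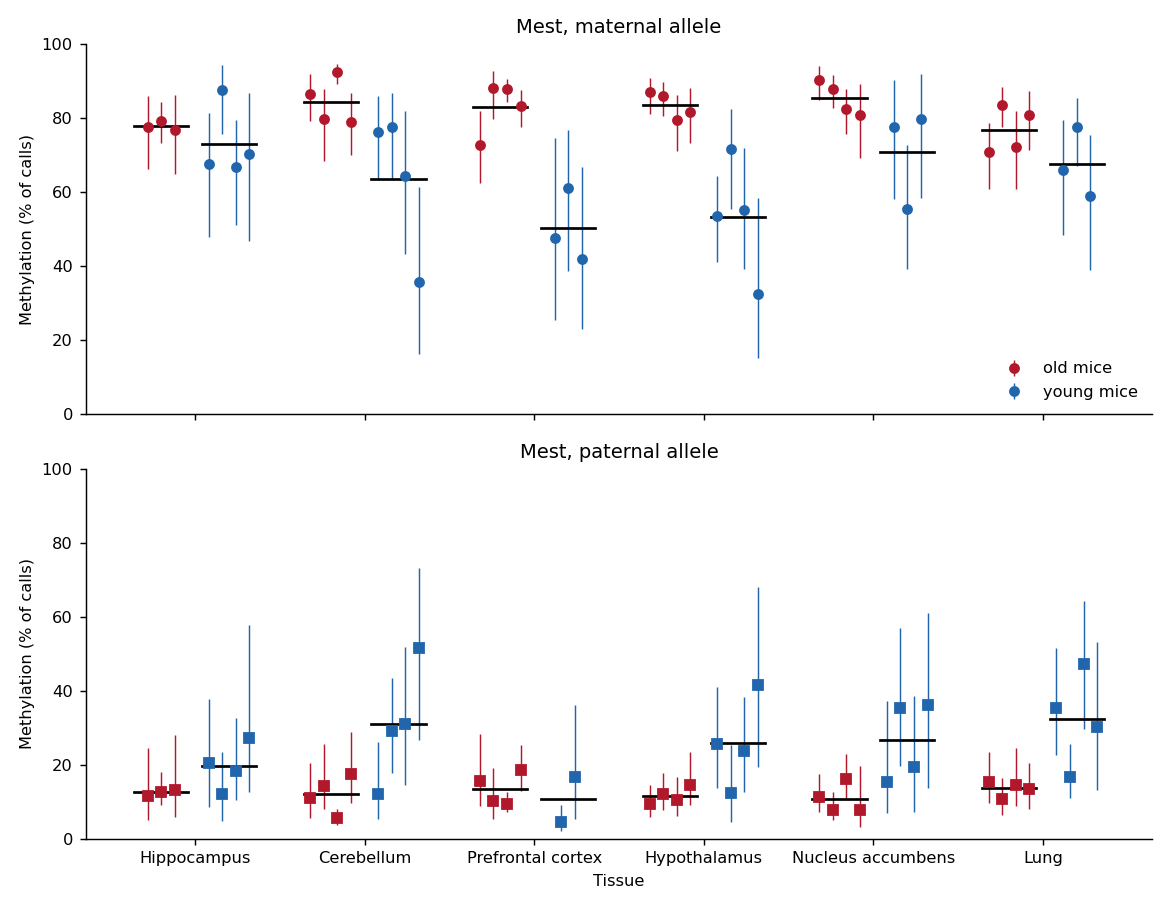
Mest methylation of every library of 100 or more calls (%, y axis) by tissue, with old mice in red left of young mice in blue, the maternal allele above and the paternal allele below. Points are single mice with 95% Wilson intervals from the number of reads, and black lines are means; on the maternal allele the ages are farthest apart in prefrontal cortex, at 83.0% in old and 50.2% in young mice.

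The age difference on the maternal allele was also compared between each brain area and lung. Within mouse, prefrontal cortex minus lung averaged 6.07 points in 4 old mice and -17.3 points in 3 young mice. The age difference in prefrontal cortex minus that in lung was 23.9 points with a standard error of 3.74 (limma adjusted p = 0.0293), and it was the 1 call among 21 region-alleles, or 4.76%. Without the prefrontal cortex library of mouse 5 it was 22.9 points (limma adjusted p = 0.120), and it also lost the call without mouse 1, 2, 6 or 7. It did not pass either at a minimum of 50 calls (limma adjusted p = 0.0546), without the first and last CpG (limma adjusted p = 0.136) or on the logit scale (limma adjusted p = 0.215). The other 4 brain areas had maternal differences from the lung effect of -8.23 to 13.1 points and none passed (limma).

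Averaged over the libraries kept of both ages, the tissues differed little at Mest. These means rest on different mice and were not adjusted for the mice that a tissue lacked. Maternal levels of mouse 8 are missing in nucleus accumbens, lung and prefrontal cortex. They are part of the means of hippocampus (70.4%), cerebellum (35.7%) and hypothalamus (32.6%). On the maternal allele the means ran from 79.2% ± 11.4 in nucleus accumbens (SD, n = 7), over 75.1% ± 7.39 in hippocampus (n = 7), 73.9% ± 17.4 in cerebellum (n = 8), 72.9% ± 8.62 in lung (n = 7) and 68.9% ± 19.1 in prefrontal cortex (n = 7), to 68.4% ± 19.4 in hypothalamus (n = 8). Neighbours in this order were 0.590 to 4.07 points apart, which is less than the spread between mice. Paternal methylation was highest in lung at 23.0% ± 13.1 (n = 8) and lowest in prefrontal cortex at 12.5% ± 5.30 (n = 6), where mice 7 and 8 are missing. Set against lung, the 5 brain areas differed by -3.93 to 6.28 points on the maternal and by -7.82 to -1.44 points on the paternal allele. The fits had age and cross as terms and did not pair the tissues by mouse. None of these 10 differences passed the adjustment in limma or had an unadjusted p under 0.05, while 0 to 22.7% of all region-alleles were called in these comparisons, for example 4.55% in hippocampus against lung. With the mouse as block, none passed either (limma adjusted p from 0.214 to 0.897). In the unpaired fit without mouse 6, nucleus accumbens was 11.0 points above lung on the maternal allele (limma adjusted p = 0.0206). The share called without mouse 6 was not counted.

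The reciprocal crosses tell the parent of origin from the strain, since the maternal Mest allele is of BL6 in mice 1, 2, 7 and 8 and of CAST in mice 3 to 6. It was the more methylated allele in both crosses. Over tissues the maternal level averaged 67.7% ± 18.4 with a BL6 mother and 75.2% ± 8.64 with a CAST mother, and the paternal level 22.0% ± 12.4 with a BL6 mother and 16.0% ± 4.53 with a CAST mother (SD, n = 4 each). The differences of -7.53 points maternal and 6.03 points paternal each had a limma adjusted p of 0.839, 0% of the region-alleles were called, and the crosses overlapped on both alleles. Confidence intervals of -19.8 to 4.78 points and -2.43 to 14.5 points leave differences of that size undetected with 8 mice. In single tissues 0 of 12 cross differences passed in limma or edgeR, and 0 had an unadjusted p under 0.05 by either tool. Mouse 8, the shallowest, has a BL6 mother, and without it the differences over tissues were -2.46 points maternal and 2.76 points paternal.

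The maternal share of the Mest calls was near even, with a median of 51.2% over 47 libraries and a range of 7.95 to 65.7%. The lowest was the prefrontal cortex library of mouse 5, with 12 maternal reads. The share averaged 50.8% ± 4.07 with a BL6 mother and 49.9% ± 4.38 with a CAST mother (SD, n = 4 each, exact permutation p = 0.771). By age it averaged 52.6% ± 3.92 in the old mice and 48.1% ± 2.69 in the young mice (exact permutation p = 0.114).

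The 9 CpGs did not have equal levels. With CpGs of 20 or more calls, which left out mouse 8, the maternal allele was lowest at the fifth CpG, 30737666, at 68.7% ± 8.28, and highest at the sixth, 30737751, at 82.5% ± 11.0 (SD, n = 7 mice). The paternal allele was highest at the first CpG, 30737609, at 20.6% ± 5.63, and lowest at the sixth, at 10.9% ± 7.19. The 4 CpGs after the gap of 85 bases, nearer to the start at 30738050, had 80.1% ± 9.70 maternal methylation, against 72.0% ± 7.91 in the 5 before it, and were higher in 7 of 7 mice. On the paternal allele they had 13.6% ± 7.04, against 18.8% ± 5.18, and were lower in 7 of 7 mice. Both differences, 8.07 ± 3.05 and -5.16 ± 2.68 points, had an exact sign-flip permutation p of 0.0156, the smallest for 7 mice. The alleles thus lay farther apart in the stretch nearer to the start, although the split at the gap was made with the levels known.

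Every CpG had a higher maternal and a lower paternal mean in old than in young mice, by 12.5 to 18.5 points maternal and by -13 to -6.92 points paternal. In single tissues, 44 of 45 maternal tests had the old mice higher and 44 of 54 paternal tests had them lower, but these tests share molecules and are not independent. One of the 99 passed the adjustment over all CpG-alleles, the fifth CpG on the maternal allele in hypothalamus, by 24.9 points (limma adjusted p = 0.00580, 0.388% of 258 called). It lost the call without mouse 2, 3 or 7, and without mouse 6 there were 14 calls at Mest. The share of all CpG-alleles called without mouse 6 was not counted, so the 14 cannot be set against the rest.

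**Figure D4:**
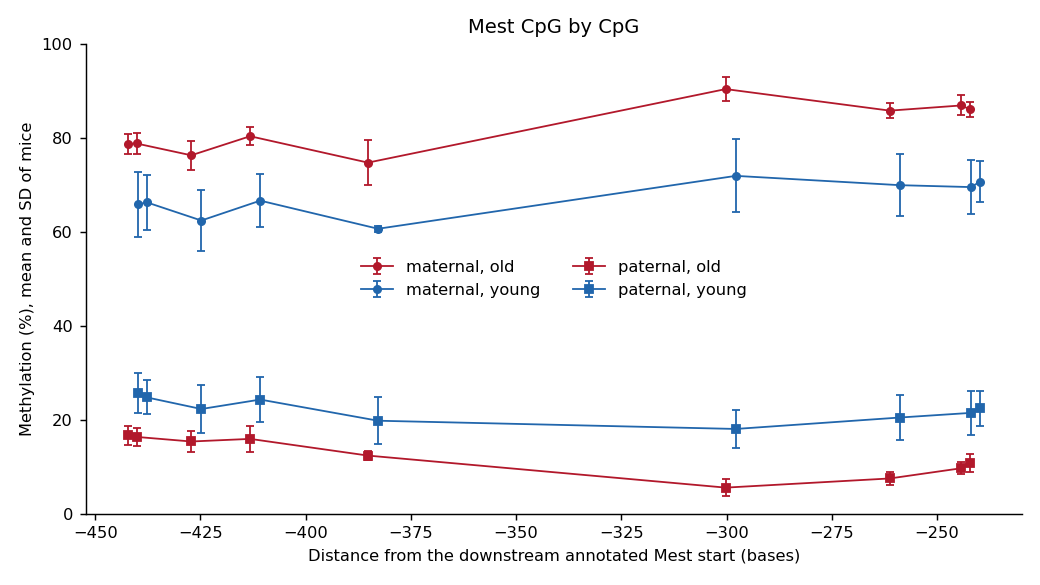
Methylation at each of the 9 Mest CpGs (%, y axis) by distance in bases from the start at 30738050 (x axis), with old mice in red, young mice in blue, circles for the maternal and squares for the paternal allele. Points are means of mouse levels with SD (4 old and 3 young mice), and the sixth CpG is the highest on the maternal and the lowest on the paternal allele in old mice, at 90.4% and 5.57%.

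Mest was set against the 6 other maternally methylated regions read in the same libraries, Commd1, Gnas, H13, Impact, Plagl1 and Snrpn. Over all 8 mice the maternal allele of Mest was lower than that of 4 regions and its paternal allele higher than that of the same 4, Commd1, H13, Impact and Plagl1, in 8 of 8 mice each (exact sign-flip permutation p = 0.00781, adjusted p = 0.0117). These differences were -18.3 to -11.9 points maternal and 9.15 to 12.1 points paternal. In the 4 old mice alone, where the smallest exact p is 0.125, Mest minus these regions was -9.40 to -4.70 points on the maternal and 3.69 to 9.36 points on the paternal allele. By the mean absolute difference over 24 group means, Gnas was the region most like Mest, at 7.67 points, followed by Snrpn at 8.55 and Impact at 9.91 points. In old mice Mest had 82.0% ± 1.72 maternal methylation and Gnas 82.1% ± 2.54 in the same libraries, against 61.0% ± 10.8 at Mest and 77.2% ± 7.22 at Gnas in young mice (SD, n = 4 each).

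Mest also had the widest age difference among the 7 regions on both alleles. The 6 others differed by 0.133 to 12.6 points maternal and by -9.63 to 2.48 points paternal, none of which passed (limma adjusted p from 0.309 to 0.973). Impact had the same directions as Mest, at 7.60 points maternal and -7.28 points paternal, each with an exact permutation p of 0.0286, as at Mest. Without mouse 8 the other regions ran from -3.40 to 3.79 points maternal and from -4.69 to 2.2 points paternal, against 16.6 and -10.6 points at Mest. The paternal allele of Impact then passed as well (-4.30 points, limma adjusted p = 0.0270). Whether the age difference at Mest is larger than that at another region was not tested. The read numbers moved with it, since Mest had a median of 108 maternal reads in old and 27 in young libraries, a ratio of 4.00, while the ratio was 0.877 to 1.92 at the 6 others. Snrpn had few reads at both ages, with medians of 30.5 maternal reads in old and 25.5 in young libraries, and maternal levels of 73.1% ± 10.1 in old and 65.4% ± 10.1 in young mice (SD, n = 4 each).

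**Figure D5:**
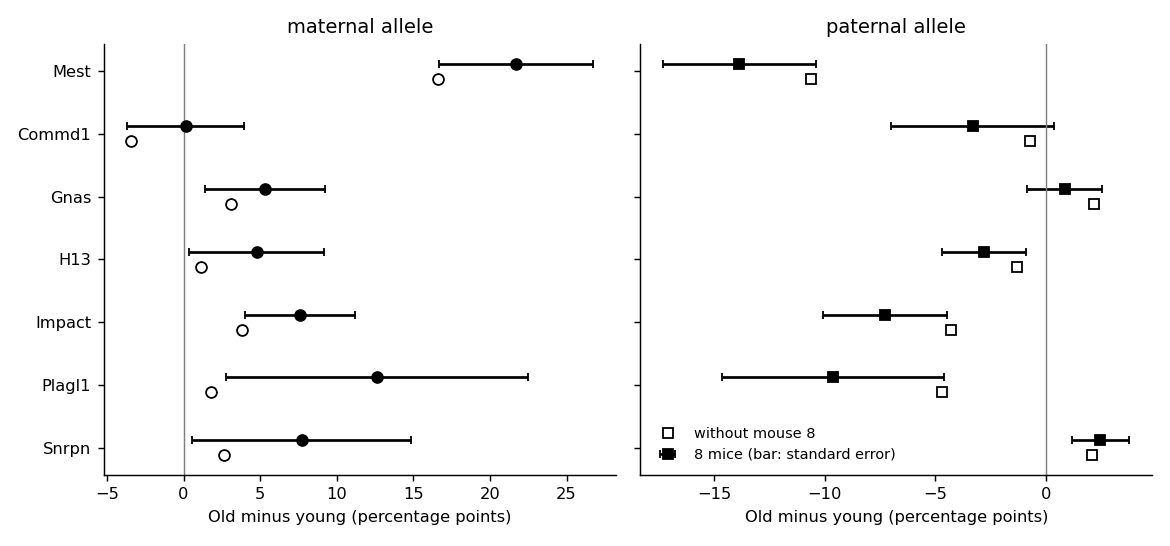
Old minus young methylation over tissues (percentage points, x axis) at Mest and 6 other maternally methylated regions, maternal allele left and paternal allele right. Filled symbols are the limma estimate from 8 mice with its standard error and open symbols the estimate without mouse 8; Mest lies farthest from 0 on both alleles, at 21.7 and -13.9 points.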

How the data were processed

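Per the labels, DNA of 8 mice was bisulfite-converted, each primer pair was amplified in its own reaction, and a second PCR added barcodes; molecular identifiers are not mentioned. Bismark 0.14.4, Trim Galore 0.6.6, bcl2fastq 2.20 and the build GRCm38 are named in the submitters' processing notes; how reads were split by genome is not given in the sources used here. The deposited table gives a methylation percent per CpG, library and genome, and the deposited count of calls behind it, neither normalized. Percent times calls came within 0.000266 of whole numbers. No label says which genome is genome 1; it was read as BL6. The labels list 72 samples; 48 have columns and 24, on another lane, were not used here.

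Methylated calls and calls were summed over the Mest CpGs per library and allele, with at least 100 calls. Percents were fitted with limma 3.58.1 (R 4.3.3) over all region-alleles with 2 mice per age, 21 or 22 per tissue, with age and cross as terms and Benjamini-Hochberg adjustment, two-sided, at 0.05. Brain area against lung needed 3 mice per tissue. Levels over tissues are least-squares mouse levels of an additive fit of mouse and tissue. Single CpGs needed 20 calls. Exact permutation tests stand beside the fits; mice are separate animals per the labels. edgeR 4.0.16 on calls was an alternative, and the fits were tested on simulated data. Mouse numbers mark the same animal, so they pair the tissues; deviations of the same mouse correlated at -0.0503 to 0.627 between tissues (median 0.240, 15 pairs), and limma's consensus correlation was 0.186. Libraries held 376 to 461238 calls with a median of 62741. The CpGs named were the highest and lowest per allele and those past the threshold; the regions named were the 3 most like Mest and the 6 others by range. The members, lists and tests were chosen with earlier results of these data known.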

Additional observations from a re-analysis of the deposited data

Results flagged for a closer look

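The age difference (old minus young) on the maternal allele of Mest in prefrontal cortex minus the same difference in lung was 23.9 points (limma adjusted p = 0.0293). This call was lost at a minimum of 50 calls, without the first and last CpG, on the logit scale, without the prefrontal cortex library of mouse 5 and without mouse 1, 2, 6 or 7 (limma adjusted p from 0.0546 to 0.215). Prefrontal cortex was above lung by 6.07 points on average in old mice and below it by -17.3 points in young mice. The young prefrontal cortex values rest on 12, 22 and 16 reads in mice 5, 6 and 7. The part of depth in this difference was not tested. Among 22 groups of mice tested for a sample far from the others, 0 held one, where chance gives about 1 in 20. With so few mice per group the test has little power, so this does not show that no library stands apart.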

How the results depend on the processing

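The maternal and paternal age differences over tissues kept their direction under every alternative run. They passed the adjustment with a minimum of 50 calls (21.4 and -12.5 points), with the mean of the CpG percents (14.2 and -10.6), without the first and last CpG (19.6 and -10.6), on the logit scale (1.59 and -1.22 in log2 odds) and with the replicate block (20.6 and -13.7), and the maternal one with edgeR (1.63 in log2 odds; paternal adjusted p = 0.152). Among these fits, the share of all region-alleles called was counted only for the replicate block (18.2%) and edgeR (4.55%). The calls of the other fits therefore cannot be set against the rest of the region-alleles. Neither age difference passed with a minimum of 200 calls (limma adjusted p = 0.0841 maternal and 0.178 paternal) or with calls as weights (0.0515 each). The same held with no covariate (0.105 each) and without the prefrontal cortex library of mouse 5 (0.0636 each). The minimum of 200 calls and the mean of the CpG percents left 3 young mice. Leaving out 1 mouse at a time gave 16.6 to 24.3 and -15.8 to -10.6 points (limma adjusted p from 0.0270 to 0.262). Both passed only without mouse 8, and the maternal one also without mouse 6.

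Of the 12 age tests per tissue 1 passed in the fit as planned. There were 0 with a minimum of 200 calls, the mean of the CpG percents, without the first and last CpG, with calls as weights, with edgeR, in libraries of 100 to 1000 calls, and without the prefrontal cortex library of mouse 5, 1 on the logit scale (hypothalamus maternal in place of prefrontal cortex), 4 with the replicate block, and 0 to 1 without 1 mouse. The last 2 library sets, and edgeR with no minimum (1 call), were chosen after seeing the data. At a minimum of 200 calls and with the mean of the CpG percents, the maternal test in prefrontal cortex could not be run. Fewer than 2 young mice remained there, so the 0 in these settings does not bear on that call. The causes were not tested, except that a higher minimum leaves fewer mice. Brain area against lung had 0 to 1 calls without 1 mouse, and the pairing by mouse changed no call there. Single CpGs of Mest had 0 to 14 calls without 1 mouse, with no share over all CpG-alleles counted in these fits. The maternal minus paternal difference passed in 2 of 6 tissues at a minimum of 200 calls, where fewer mice remain, and in 5 or 6 tissues without 1 mouse.

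Signs turned only for differences that did not pass. In hypothalamus the maternal cross difference was 0.583 with a minimum of 200 calls, 0.585 with the mean of the CpG percents and 2.36 with calls as weights, and the maternal difference from lung was 0.589, 0.584 and, with the replicate block, 0.589. In prefrontal cortex the maternal difference from lung was 6.07 at 200 calls and 2.31 with the mean of the CpG percents. No young maternal library of prefrontal cortex was left at 200 calls. The 6.07 is therefore the mean difference in old mice alone, and does not show a sign that turned in the same mice. With the mean of the CpG percents, too few young mice were left there for the maternal age test. The paternal age difference in prefrontal cortex was -1.36 with the replicate block. The paternal cross difference there was 0.923 at 50 calls, 0.519 with no covariate, 0.659 with calls as weights and 9.36 with the replicate block. The maternal cross difference in nucleus accumbens was -1.82 at 50 calls. In hippocampus edgeR with no minimum gave 0.152 for the paternal age and -0.616 for the paternal cross difference in log2 odds. Without 1 mouse, ranges crossed 0 for the maternal cross difference in hippocampus (-9.04 to 1.23), hypothalamus (-9.31 to 0.583) and lung (-9.15 to 0.738), the paternal one in prefrontal cortex (-5.68 to 3.37) and nucleus accumbens (-4.48 to 3.48), the paternal age difference in prefrontal cortex (-1.18 to 7.88), the difference from lung in hypothalamus (maternal, -5.39 to 0.589) and cerebellum (paternal, -4.70 to 1.67), Mest minus Snrpn (maternal -0.412 to 4.45, paternal -0.456 to 3.99) and the maternal call share by cross (-0.603 to 2.66). At 12 reads per allele, as in the shallowest young libraries, only large differences between alleles can be seen.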
